A study of Canis lupus familiaris with 4 samples.

Results

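The 8 genes PLAU, PLAUR, PLAT, SERPINE2, SERPINB2, F3, TFPI and TFPI2 of the plasminogen activator and tissue factor systems were examined in canine mammary cancer cells. They encode the proteases urokinase (PLAU) and tissue plasminogen activator (PLAT), the urokinase receptor (PLAUR), the serine protease inhibitors SERPINE2 and SERPINB2, tissue factor (F3) and the Kunitz-type inhibitors TFPI and TFPI2. Members were found as non-control probes whose gene name was the symbol or whose description gave it in brackets. All 8 genes were on the array, out of 12390 genes with a RefSeq symbol, and were read by 11 probes. The genes were chosen by pathway after the co-culture over single culture ratios of PLAU, PLAUR and PLAT in these arrays were known, so their co-culture ratios are given as a description. The fit over all probes includes them, but nothing is read from its outcome for these genes and no p-value of a co-culture ratio is given for them.

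Urokinase and tissue plasminogen activator cleave plasminogen to plasmin, which dissolves fibrin and degrades matrix at the cell surface. The urokinase receptor holds urokinase on the membrane, and SERPINE2 and SERPINB2 are serpins that inactivate these proteases. Tissue factor is the membrane receptor for coagulation factor VII that starts the clotting cascade, and TFPI blocks that complex. In tumours, cancer cells and the macrophages around them can both express urokinase, its receptor and tissue factor.

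The cells came from P114 and CMT-U27, established lines of canine mammary cancer. Stem-like cells positive for Sca1, EpCAM and CD44 had been sorted from each line and were kept with tumour-associated macrophages (co-culture) or without them (single culture), and all samples are labelled day 3. The groups were P114 co-culture, P114 single culture, CMT-U27 co-culture and CMT-U27 single culture. Each line had 2 two-colour arrays, with both cultures of the line on each array and the dyes exchanged between the arrays. The source of the macrophages, and how they were kept apart from the cancer cells before RNA isolation, are not given in the sources used here. The labels call the arrays biological replicates and do not say whether separate cultures were used, so the spread between arrays may be technical.

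The probe sequences of 3 genes are shown, because most of what follows rests on them and because PLAU and PLAT were each read by a pair of probes. Each probe is 60 bases long, and positions are those of the CanFam3.1 assembly in the file headers. The first PLAU probe (chr4:24332536-24332945, plus strand) covers 410 bases of the genome, so it crosses a splice junction. The second (chr4:24331270-24331329, plus strand) lies upstream in the same transcript, NM_001194952. The capitals in it mark the 12 bases that encode the first 4 residues of the catalytic chain, which are freed when pro-urokinase is cut. The 2 PLAT probes (chr16:23495222-23495281 and chr16:23495224-23495283, plus strand) read the end of the transcript ENSCAFT00000008984, and the second ends in a stop codon. Their capitals mark the 58 bases that both share, so they are near-repeats of one reading. The PLAUR probe (chr1:111490389-111490448, plus strand) is shown because PLAUR was read once, from the transcript ENSCAFT00000007613.
PLAU probe 1: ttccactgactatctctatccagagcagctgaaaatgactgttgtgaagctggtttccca
PLAU probe 2: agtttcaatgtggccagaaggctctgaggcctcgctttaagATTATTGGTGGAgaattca
PLAT probe 1: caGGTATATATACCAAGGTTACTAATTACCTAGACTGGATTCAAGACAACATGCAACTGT
PLAT probe 2: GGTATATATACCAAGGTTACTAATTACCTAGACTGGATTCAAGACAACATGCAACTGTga
PLAUR probe: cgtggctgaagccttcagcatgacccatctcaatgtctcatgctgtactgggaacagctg

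The other members were each read by 1 probe, apart from TFPI, which had 2. The SERPINE2 probe lies at chr37:29699828-29699887 (minus strand), the SERPINB2 probe at chr1:13260847-13260906 (minus strand) and the F3 probe at chr6:54720386-54720445 (plus strand). The TFPI probes lie at chr36:29473991-29474050 and chr36:29479649-29484014, and the TFPI2 probe at chr14:19399860-19400279, all on the minus strand. No genome of this build was used, and no exon or UTR annotation is given for these probes.

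Of 43603 probes, 28658 were tested. These had a signal well above background on both arrays in 1 or more of the 4 groups. They include 8 of the 11 probes and 6 of the 8 genes. TFPI and TFPI2 were well above background on P114 replicate 1 alone, in both cultures, and were not tested. Between 56.9% and 64.4% of spots were well above background on 3 arrays, against 87.7% in co-culture and 90% in single culture on P114 replicate 1. Saturated spots numbered 0. Before normalization Cy5 was brighter than Cy3 on each array, with a median log2 ratio between 0.033 and 1.02 over the tested probes, and loess removed this trend within each array. The log2 ratios of the 2 P114 arrays had a Pearson correlation of -0.14 over all probes, and those of the 2 CMT-U27 arrays one of -0.041. EPCAM and CD44, which had been used in the sort, were well above background in all 8 channels. Which culture was in which dye was taken from the channel labels, and an error there would turn the sign of every ratio of that array.

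PLAU, PLAUR and PLAT stood higher in co-culture than in single culture on both P114 arrays. In CMT-U27 only PLAT did so among these 3 genes, while the PLAU and PLAUR ratios lay on both sides of 0. The limma fit over all probes called 0 of 28658 probes in P114 (0%), with 1524 (5.32%) at an unadjusted p under 0.05. In CMT-U27 it called 14 probes (0.0489%), all of them higher in co-culture, with 563 (1.96%) at an unadjusted p under 0.05. For the difference of the ratio between lines, P114 minus CMT-U27, it called 9 probes (0.0314%), all lower, with 775 (2.7%) at an unadjusted p under 0.05. None of the 8 tested probes was among those called in either line or for the difference (0 of 8). A log2 ratio of at least 0.3 on both arrays was held by 3 of the 8 probes in P114 (both PLAU probes and PLAUR) and by 2 of 8 in CMT-U27 (both PLAT probes). Among all tested probes this share was 0.405% for P114 and also 0.405% for CMT-U27. The genes were chosen with the ratios of PLAU, PLAUR and PLAT known, so nothing can be read from the gap. The median ratio of all tested probes was 0.00084 for P114 and 0.0057 for CMT-U27.

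**Figure D1:**
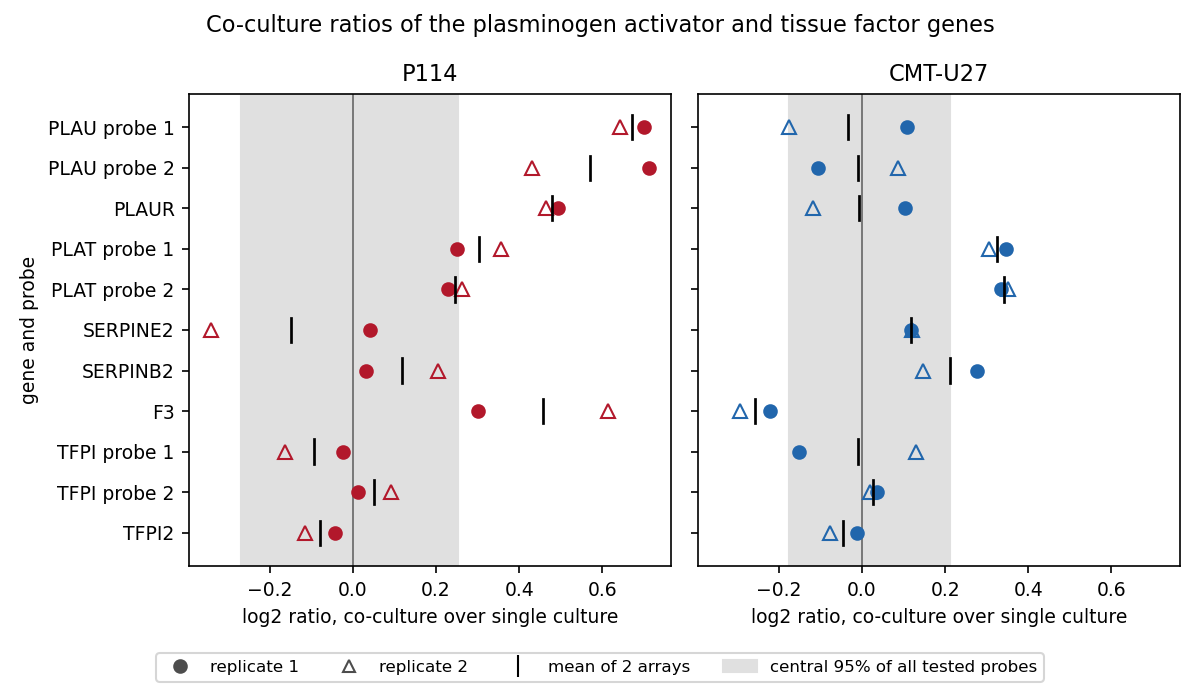
Log2 ratios of co-culture over single culture (horizontal axis) for the 11 probes (vertical axis) in P114 on the left and CMT-U27 on the right. Circles and triangles are the 2 arrays of a line and bars their mean. The grey band holds the central 95% of the 2-array means of all tested probes, so it is not a range for single arrays. In P114 the means of both PLAU probes, PLAUR, F3 and PLAT probe 1 lie right of the band. In CMT-U27 those of both PLAT probes and, barely, SERPINB2 lie right of it, and that of F3 lies left of it.

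At PLAU probe 1 the log2 ratio was 0.70 on P114 replicate 1 and 0.64 on P114 replicate 2. The mean was 0.67 ± 0.04 (SD, n = 2 arrays), or 1.59-fold higher in co-culture. PLAU probe 2, with the activation site, gave 0.71 and 0.43 on the same arrays and a mean of 0.57 ± 0.20. Both probes were thus positive on both P114 arrays, with a spread smaller than their means. The normalized log2 level at probe 1 was 10.45 in co-culture and 9.75 in single culture on P114 replicate 1, and 11.22 in co-culture and 10.58 in single culture on P114 replicate 2. The arrays differed by more than the cultures did, so the 2 groups overlap when the pairing on the array is ignored. The dye correction matters on P114 replicate 1, where the uncorrected brightness of probe 1 was 1114 in co-culture (Cy3) and 1125 in single culture (Cy5). On P114 replicate 2, where the dye bias was small, it was 2414 in co-culture (Cy5) and 1498 in single culture (Cy3).

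In CMT-U27 PLAU showed no shift in one direction. Probe 1 gave 0.11 and -0.18 on replicates 1 and 2, a mean of -0.034 ± 0.20 (SD, n = 2). Probe 2 gave -0.10 and 0.09, a mean of -0.0083 ± 0.14. The spread between arrays exceeded the mean at both probes, and the 2 probes had opposite signs on each array.

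PLAUR, the receptor that holds urokinase at the membrane, gave log2 ratios of 0.49 and 0.46 on the P114 arrays. Its mean was 0.48 ± 0.02 (SD, n = 2), or 1.39-fold higher in co-culture. On the CMT-U27 arrays it gave 0.10 and -0.12, a mean of -0.0069 ± 0.16. The P114 log2 levels of PLAUR were 8.76 and 8.92 in co-culture, against 8.27 and 8.46 in single culture. These levels did not overlap, unlike those of PLAU probe 1. The P114 levels of PLAU probe 2 did not overlap either, at 8.63 and 8.91 in co-culture and 7.92 and 8.48 in single culture. In CMT-U27 the PLAUR levels were 7.24 and 7.11 in co-culture and 7.13 and 7.23 in single culture, which overlap. Here and below, a lack of overlap between 2 and 2 values is a description only. Its share over all tested probes was not counted, so nothing is read from it.

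Among the members well above background in all 8 channels, only PLAT, the second plasminogen activator, had a positive ratio on both arrays of both lines. SERPINB2 and 1 TFPI probe, both near background, were also positive on each array, with smaller means. Probe 1 gave 0.25 and 0.36 on the P114 arrays, a mean of 0.30 ± 0.07 (SD, n = 2), or 1.23-fold. In CMT-U27 it gave 0.35 and 0.31, a mean of 0.33 ± 0.03, or 1.25-fold. The second PLAT probe, which shares nearly its whole sequence with the first, gave a mean of 0.25 ± 0.02 in P114 and one of 0.34 ± 0.01 in CMT-U27. The log2 levels of PLAT in CMT-U27 were 9.13 and 9.05 in co-culture, against 8.78 and 8.74 in single culture, with no overlap. In P114 they were 7.30 and 8.24 in co-culture and 7.05 and 7.89 in single culture, and the groups overlap.

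The 2 serpins gave smaller or divided ratios. SERPINE2, also called protease nexin-1, inhibits urokinase, tissue plasminogen activator and thrombin. Its log2 ratio was 0.041 on P114 replicate 1 and -0.34 on P114 replicate 2, a mean of -0.15 ± 0.27 (SD, n = 2), so the arrays had opposite signs. In CMT-U27 it was 0.12 on both arrays, a mean of 0.12 ± 0.00054 or 1.09-fold. SERPINB2, plasminogen activator inhibitor 2, was dim. It cleared the background limit on 0 of 2 P114 arrays in either culture, on 2 of 2 CMT-U27 arrays in co-culture and on 1 of 2 in single culture. Its ratios were 0.03 and 0.20 in P114 and 0.28 and 0.15 in CMT-U27, and the P114 values compare signals that both lie near background. The size of the SERPINB2 ratio depends on the processing, since the mean of the scanner software's own log ratio was 0.65 in P114 and 1.66 in CMT-U27, against 0.12 and 0.21 here.

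F3, the tissue factor gene, was the member whose ratio had opposite signs in the 2 lines. It was 0.30 on P114 replicate 1, just under the minimum of 0.3 before rounding, and 0.61 on P114 replicate 2. The P114 mean was 0.46 ± 0.22 (SD, n = 2), or 1.37-fold higher in co-culture. In CMT-U27 it was -0.22 and -0.29, a mean of -0.26 ± 0.05, or 1.19-fold lower in co-culture. The log2 levels in P114 were 13.30 and 13.73 in co-culture, against 13.004 and 13.12 in single culture, and did not overlap. In CMT-U27 they were 12.79 and 12.49 in co-culture and 13.008 and 12.78 in single culture, and just overlapped. A ratio of one sign on both P114 arrays and of the other on both CMT-U27 arrays was held by 8.39% of all tested probes. When loess was replaced by median centring, the CMT-U27 mean of F3 was 0.010, against a median of all tested probes of 0.15 under that setting, so the F3 value was then -0.14 relative to the median.

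The Kunitz-type inhibitors gave no measurable ratio. TFPI is the main inhibitor of the tissue factor complex, and TFPI2 is its matrix-bound relative, which also inhibits plasmin. The brighter TFPI probe gave 0.012 and 0.091 in P114 and 0.036 and 0.018 in CMT-U27, and the other gave means of -0.093 in P114 and -0.010 in CMT-U27. The mean of the brighter TFPI probe in CMT-U27 was -0.52 when the log ratio of the scanner software was used. TFPI2 gave means of -0.079 in P114 and -0.045 in CMT-U27. All 3 probes were well above background in co-culture on 1 of 2 P114 arrays and 0 of 2 CMT-U27 arrays, and likewise in single culture, so a change in these genes was not detectable here.

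**Figure D2:**
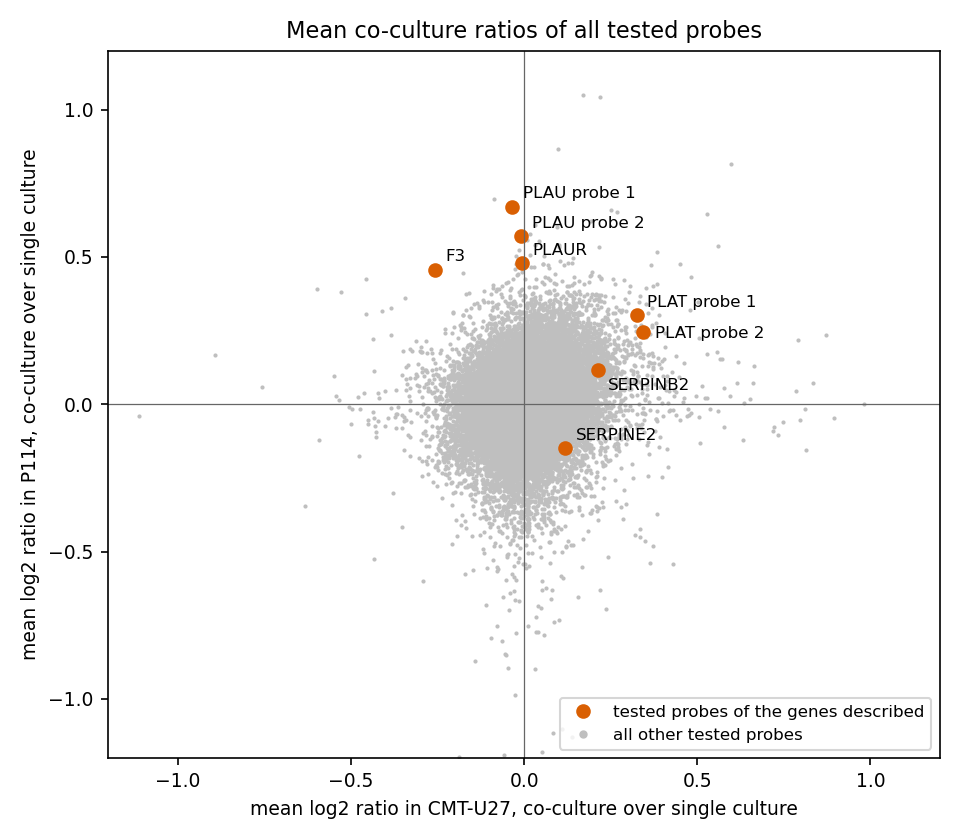
Mean log2 ratio of co-culture over single culture in CMT-U27 (horizontal axis) and P114 (vertical axis), 1 point per tested probe, with the 8 probes of the described genes in orange and 79 other probes outside the plotted range. PLAU and PLAUR lie high on the vertical axis and close to 0 on the horizontal one, PLAT lies above 0 on both, and F3 lies above 0 on the vertical and below 0 on the horizontal axis.

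The neighbouring genes of fibrinolysis showed no shared direction in either culture comparison. Of 18 listed genes 13 were tested, and 0 were called in P114 (background 0%) and 0 in CMT-U27 (background 0.0489%). At an unadjusted p under 0.05 there were 1 higher and 1 lower in P114 and 0 in CMT-U27. In P114, 1 gene was higher on both arrays and 5 were lower on both, with a median of -0.057, while 22.1% of all tested probes were higher and 21.6% lower on both arrays. In CMT-U27, 2 were higher and 3 lower on both arrays, with a median of 0.022, against 23.4% and 20.3% of all tested probes.

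Among these genes the largest P114 ratios of 1 sign were those of S100A10, LRP1 and A2M. S100A10, which binds plasminogen on the cell surface with annexin A2, had ratios of -0.55 and -0.13. LRP1, the endocytic receptor that clears complexes of protease and inhibitor, had 0.47 and 0.14. A2M, a broad protease inhibitor, had -0.19 and -0.21. In CMT-U27 SERPINA5, the protein C inhibitor, had -0.13 and -0.23, and MMP9, a gelatinase gene, had 0.20 and 0.16. The other SERPINA5 probes, not tested, had CMT-U27 means from -0.046 to 0.076. The other MMP9 probes had CMT-U27 means from -0.052 to 0.13, the highest at the only other one tested.

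The genes around tissue factor and thrombin were mostly too dim to test. Of 21 listed genes 7 were tested, and 0 were called in P114 and 0 in CMT-U27, also at an unadjusted p under 0.05 (0 in each line). In P114, 1 was higher and 1 lower on both arrays, with a median of -0.028. In CMT-U27, 1 was higher and 0 lower on both arrays, with a median of 0.0099. Shares called among all tested probes were 0% in P114 and 0.0489% in CMT-U27. By limma 5.32% and 1.96% had an unadjusted p under 0.05. On both arrays 22.1% of all tested probes were higher and 21.6% lower in P114, and 23.4% and 20.3% in CMT-U27. With 7 genes tested, nothing is read from these counts. PROCR, the receptor of protein C, had ratios of -0.52 and -0.21 in P114, and F2RL1, a protease-activated receptor, had 0.094 and 0.086. GGCX, the carboxylase that acts on clotting factors, had 0.11 and 0.061 in CMT-U27.

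Of 10 listed partners of the urokinase receptor 6 were tested, and 0 were called in either line (background 0% in P114 and 0.0489% in CMT-U27). In P114, 2 were higher and 0 lower on both arrays, with a median of 0.11, and 1 was higher at an unadjusted p under 0.05. In CMT-U27, 4 were higher and 1 lower on both arrays, with a median of 0.041, and 1 was higher at an unadjusted p under 0.05. Over all tested probes 22.1% were higher and 21.6% lower on both P114 arrays, 23.4% higher and 20.3% lower on both CMT-U27 arrays, and 5.32% in P114 and 1.96% in CMT-U27 had an unadjusted p under 0.05 in either direction. ITGAV, the alpha subunit of the vitronectin receptor, had ratios of 0.22 and 0.48 in P114 and 0.039 and 0.031 in CMT-U27. Its other 2 probes had P114 means of 0.23 and 0.079. ITGB3, the beta subunit, had 0.068 and 0.061 in P114 and 0.34 and 0.14 in CMT-U27, and its other probe had a P114 mean of -0.21. ITGB1 had -0.47 and -0.023 in CMT-U27.

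Because the co-culture held macrophages, which can express urokinase, its receptor and tissue factor, macrophage markers were read beside these ratios. Of 18 markers, 6 were well above background on both arrays in P114 co-culture and 6 in P114 single culture. In CMT-U27 they were 3 in co-culture and 2 in single culture. CD14 and CD68 were well above background in all 8 channels, while CSF1R was so on P114 replicate 1 alone, in both cultures, and PTPRC in 0 of 8 channels. The summed linear level of the 18 markers ranged from 2197 to 2817 in P114 co-culture, against 2404 to 3023 in P114 single culture. It ranged from 2103 to 2235 in CMT-U27 co-culture, against 2012 to 2248 in CMT-U27 single culture. CD86, the marker with the largest ratio of 1 sign in P114, had -0.47 and -0.35. Within arrays the macrophage sum was lower in co-culture on both P114 arrays, by log2 ratios of -0.10 and -0.13, and had ratios of 0.064 and -0.0083 on the CMT-U27 arrays. The sum also holds markers near background, which pull its ratio towards 0. Of the 18, 11 in CMT-U27 co-culture and 14 in CMT-U27 single culture were well above background on no array, and 1 in each P114 culture. How much macrophage RNA the co-culture samples held was not tested. Of 6 tested macrophage markers 4 were lower and 0 higher on both P114 arrays, and 0 lower and 1 higher on both CMT-U27 arrays.

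Some markers of other cell types also moved between the cultures. Of 10 tested epithelial and sort markers, 6 were lower and 1 higher on both P114 arrays, 3 of them lower at an unadjusted p under 0.05 and 0 called. Among all tested probes 5.32% had such a p by limma in P114, in either direction, and 0% were called. Their sum ranged from 19112 to 19379 in P114 co-culture, against 21878 to 22330 in P114 single culture. It ranged from 133813 to 142360 in CMT-U27 co-culture, against 127344 to 133590 in CMT-U27 single culture. The log2 ratios of this sum within arrays were -0.22 and -0.17 in P114, and 0.16 and 0.0024 in CMT-U27. On both CMT-U27 arrays 4 of these markers were higher and 3 lower. At an unadjusted p under 0.05 by limma, 2 were higher and 0 lower in CMT-U27, and 0 were called. The shares of all tested probes there were 1.96% in either direction and 0.0489%. The fibroblast and stroma sum ranged from 4019 to 4441 in CMT-U27 co-culture, against 3472 to 3801 in CMT-U27 single culture, with log2 ratios within arrays of 0.21 and 0.22. In P114 those ratios were 0.047 and 0.027. The brightest markers weigh most in such a sum. Of the 7 fibroblast and stroma markers, 2 were higher and 1 lower on both CMT-U27 arrays, and 4 were divided. On both P114 arrays 2 were higher and 2 lower. Among all tested probes 22.1% were higher and 21.6% lower on both P114 arrays, and 23.4% and 20.3% on both CMT-U27 arrays. The part of these shifts in the ratios of PLAU, PLAUR, PLAT and F3 was not tested. In RNA from a culture, the number of cells of a type and the RNA per cell cannot be told apart.

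The lines differed at these genes without macrophages. In single culture PLAU, PLAUR and SERPINE2 were higher in P114 than in CMT-U27, and PLAT was lower. The genes were chosen with earlier results of these arrays known, so the calls on them are not independent evidence of a difference. The lines were compared with limma's separate-channel fit, adjusted over all 28658 probes. It called 4283 probes (14.9%), 1985 of them higher in P114 (6.93%) and 2298 lower (8.02%). Of the 8 probes, 6 were called, 4 higher and 2 lower, which makes 3 genes higher and 1 lower of 6 tested. The median difference over all tested probes was -0.045. The 2 lines were never on the same array, and the arrays of each line were scanned in a session of their own on the same slide, so line and scan session cannot be told apart.

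**Figure D3:**
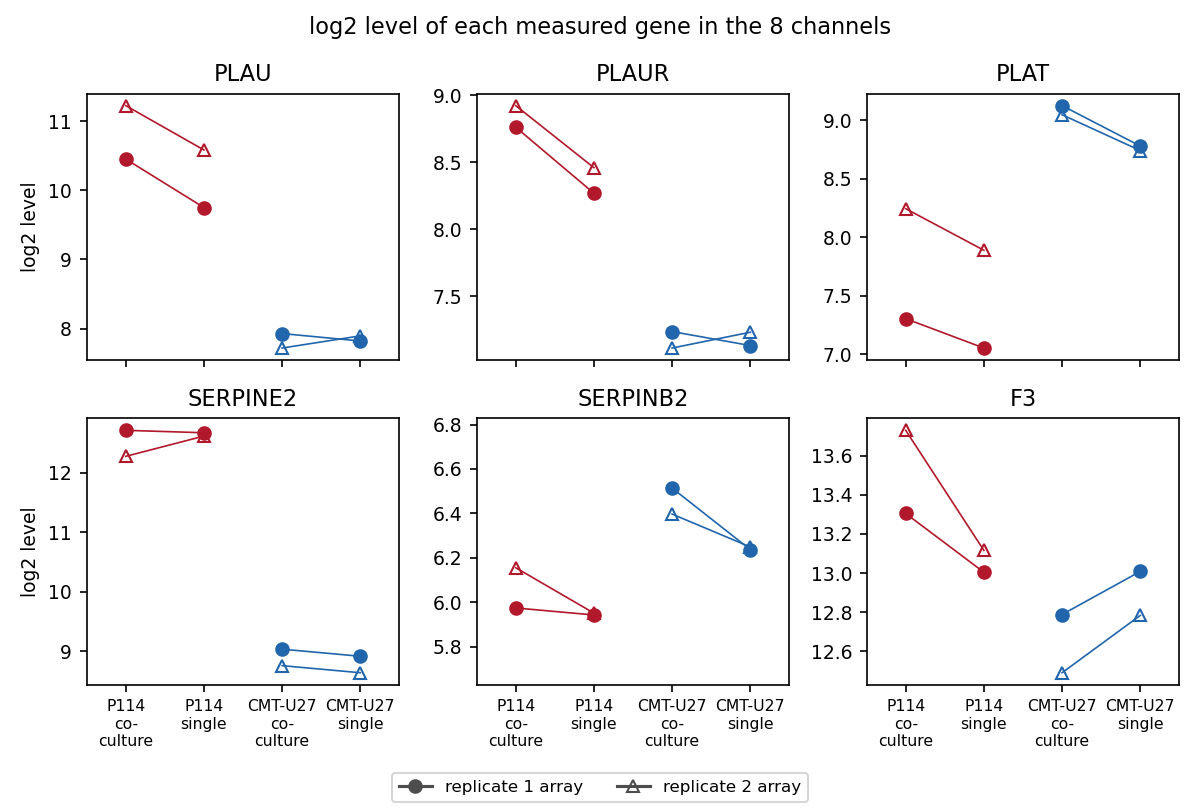
Normalized log2 level (vertical axes, 1 scale per gene) of the shown probe of the 6 tested genes in co-culture and single culture of P114 (red) and CMT-U27 (blue). A line joins the 2 channels of an array. SERPINE2, PLAU and PLAUR lie higher in all P114 channels than in any CMT-U27 channel, PLAT lies lower, and the lines' single-culture F3 levels overlap.

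SERPINE2 had the largest difference among the members. Its log2 level in single culture was 12.67 and 12.62 on the P114 arrays, against 8.91 and 8.64 on the CMT-U27 arrays. The difference was 3.87 ± 0.29 (SE), or 14.6-fold, with an adjusted p of 0.00073 by limma (n = 2 arrays per line). Its call held with each array left out in turn.

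PLAU probe 1 had log2 levels of 9.75 and 10.58 in P114 single culture, against 7.82 and 7.89 in CMT-U27 single culture. The lines did not overlap. The difference was 2.31 ± 0.34 (SE), or 4.95-fold, with an adjusted p of 0.0083 by limma. At probe 2 the levels were 7.92 and 8.48 in P114 and 6.55 and 6.34 in CMT-U27. The difference there was 1.76 ± 0.21, or 3.38-fold, with an adjusted p of 0.0039.

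PLAUR had log2 levels of 8.27 and 8.46 in P114 and 7.13 and 7.23 in CMT-U27, again without overlap. The difference was 1.18 ± 0.22 (SE), or 2.27-fold, with an adjusted p of 0.018 by limma. PLAT went the other way, with 7.05 and 7.89 in P114 and 8.78 and 8.74 in CMT-U27. Its difference was -1.29 ± 0.31, or 2.45-fold lower in P114, with an adjusted p of 0.039, and the near-repeat probe gave -1.28 ± 0.32 with an adjusted p of 0.045. These calls rest on few arrays. Without CMT-U27 replicate 1 or without CMT-U27 replicate 2, PLAU (adjusted p = 0.092 and 0.089), PLAUR (0.24 and 0.21) and PLAT (0.36 and 0.35) were no longer called. PLAUR was also lost without P114 replicate 1 (0.092) or P114 replicate 2 (0.097), and PLAT without P114 replicate 1 (0.079).

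F3 and SERPINB2 were not called between the lines. F3 had single-culture levels of 13.004 and 13.12 in P114 and 13.008 and 12.78 in CMT-U27, which overlap. Its difference was 0.16 ± 0.24 (SE), with an adjusted p of 0.70 by limma. SERPINB2 had a difference of -0.30 ± 0.17 with an adjusted p of 0.30, and in P114 its value is only a bound. It entered the test only through its signal in CMT-U27 co-culture, where its mean log2 level was 6.46, against 6.06 in P114 co-culture, not well above background, and no fold is given.

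**Figure D4:**
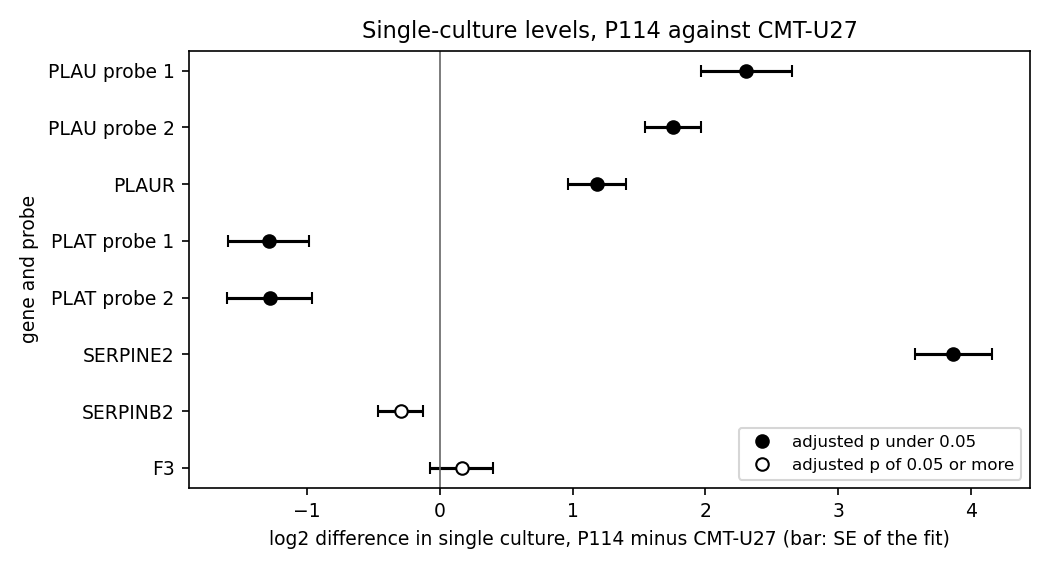
Log2 difference in single culture, P114 minus CMT-U27 (horizontal axis), for the 8 tested probes (vertical axis), with the SE of the fit as bars and filled points for an adjusted p under 0.05. SERPINE2 lies at 3.87, the PLAU probes at 2.31 and 1.76, PLAUR at 1.18 and the PLAT probes at -1.29 and -1.28, while the open points of SERPINB2 and F3 lie near 0.

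Over all 4 combinations, PLAU, PLAUR and F3 were highest in P114 co-culture, SERPINE2 in P114 single culture, and PLAT and SERPINB2 in CMT-U27 co-culture. For PLAU probe 1 and for PLAUR the order was P114 co-culture, P114 single culture and then the CMT-U27 cultures, which overlapped. The gap between P114 single culture and the next lower combination was 2.31 for PLAU and 1.18 for PLAUR on the log2 scale. For PLAT both CMT-U27 cultures stood apart from each other and above the overlapping P114 cultures, by 0.99 at the nearest. For SERPINE2 the cultures of a line overlapped and the lines lay 3.6 apart at the nearest means. For F3 only P114 co-culture stood apart, by 0.46 above P114 single culture.

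In the fibrinolysis list 5 of 13 tested genes were called between the lines in single culture, 2 higher in P114 and 3 lower, with a median difference of -0.00087, where 14.9% of all tested probes were called, 6.93% higher and 8.02% lower. The same shares apply to the lists that follow. The genes named here and in the lists below were chosen after their values were seen. One of those higher in P114 was LRP1, by 0.83 ± 0.19 (SE, adjusted p = 0.036 by limma). Plasminogen itself (PLG) was lower in P114, at -0.83 ± 0.18 (adjusted p = 0.028), neuroserpin (SERPINI1) at -1.45 ± 0.18 (adjusted p = 0.0043) and MMP9 at -1.53 ± 0.29 (adjusted p = 0.019). In P114 single culture the PLG and MMP9 signals cleared the background limit on 1 of 2 arrays. Of 7 tested genes around tissue factor and thrombin, 2 were higher and 1 lower. They were ANXA5 (1.80 ± 0.18), which binds procoagulant phospholipid, VKORC1 (1.00 ± 0.18), which recycles vitamin K, and GGCX (-1.17 ± 0.26). Of 6 tested receptor partners 2 were higher and 0 lower, namely the integrin subunits ITGA5 at 3.97 ± 0.51 and ITGB1 at 2.67 ± 0.50. ITGA5 was well above background on 1 of 2 CMT-U27 arrays in single culture.

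Markers of cell type also differed between the lines. Of 10 tested epithelial and sort markers, 7 were lower in P114 and 0 higher, with a median difference of -2.35, against 8.02% lower and 6.93% higher of all tested probes. Their summed linear level was 21878 to 22330 in P114 single culture, against 127344 to 133590 in CMT-U27 single culture. Of 7 fibroblast and stroma markers 1 was higher and 0 lower, and the summed level was 21303 to 21954 in P114 single culture, against 3472 to 3801 in CMT-U27 single culture. Of 6 tested macrophage markers 1 was higher and 0 lower. The part of these differences in the values of PLAU, PLAUR, SERPINE2 and PLAT was not tested.

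Genes with a pattern most like that of a member were sought among 9743 genes over the 8 channels, which come from 4 arrays and share their normalization. Such a pattern holds the difference between lines as well as that between cultures, and the correlations are a description only. The closest by Pearson correlation were TSPAN9, ANKRD22 and CCDC80 for PLAU (0.997 each), PARVB for PLAUR (0.996), EPS15L1 for PLAT (0.997), MVP for SERPINE2 (0.999), PCMTD1 for SERPINB2 (0.990) and HMGB3 for F3 (0.956). F3 had the smallest line difference of the 5 members well above background in all channels, and its closest gene had the lowest correlation of these.

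**Figure D5:**
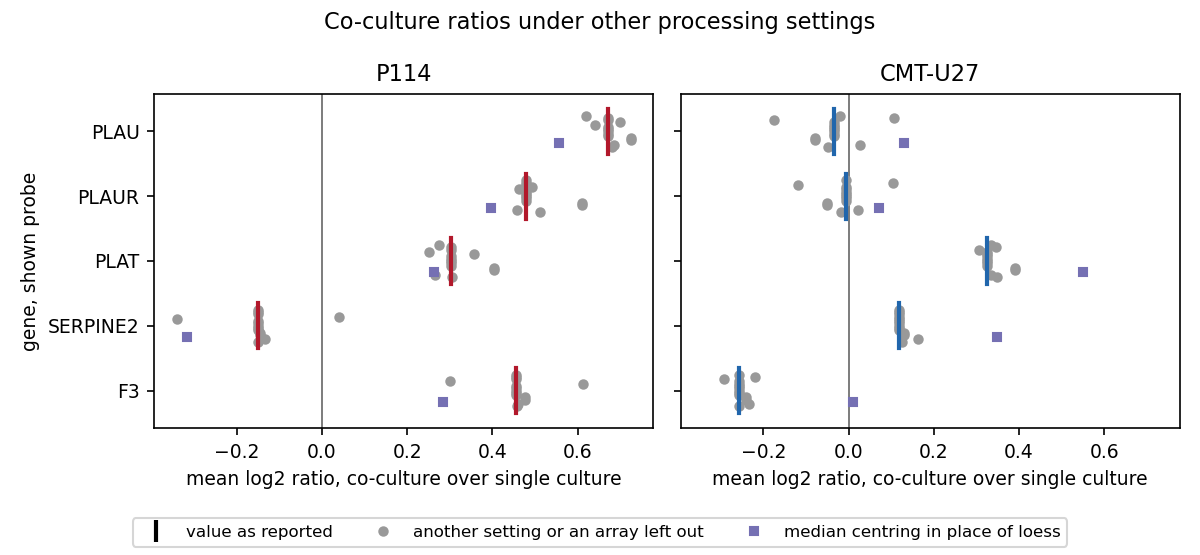
Mean log2 ratio of co-culture over single culture (horizontal axis) of the shown probe of 5 genes (vertical axis) in P114 on the left and CMT-U27 on the right, as reported (bars) and under 15 other settings, 4 of which leave out an array (points, of which 6 or 7 coincide with the bar). PLAU, PLAUR, PLAT and F3 stay right of 0 in P114, and in CMT-U27 PLAT stays right of 0 while F3 reaches 0.010 with median centring (square).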

How the data were processed

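RNA of 4 two-colour arrays was analysed, 2 per line. Linear spot intensity and local background were read from the deposited scanner output of Agilent Feature Extraction (version 10.10.1.1 per the file headers, 10.7.3.1 per the submitters' processing notes), on design 021193. Per the file headers the log10 ratio is Cy5 over Cy3 after the software's own correction, and the authors' deposited values repeat it exactly (largest gap 0). The deposited flags of 0 or 1 were used as filters. Depth does not apply to arrays, whose number limits the precision.

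Each array held 45220 spots, 1417 of them controls. Intensities were corrected with normexp (offset 50), loess was run within arrays, and log2 ratios were turned to co-culture over single culture. Spots lying more than 20 below their local background (33, 0, 5 and 35 on the arrays in the order P114 replicate 1 and 2, CMT-U27 replicate 1 and 2) and spots marked as outliers were left out. Leaving out the first kind was chosen after the data were seen. With those few spots in the background model, the background fitted for single culture was -222 on P114 replicate 1 and -349 on CMT-U27 replicate 2, against -1.1 and -6.6 without them, which pulls the ratios of dim probes towards 0.

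Ratios were fitted with limma 3.58.1 (R 4.3.3, and version 1.17.8 of data.table) with a coefficient per line and a dye term (1 residual degree of freedom), at a Benjamini-Hochberg adjusted p under 0.05. Lines were compared by a separate-channel fit after Aquantile. Both fits were tested on simulated data, the ratio fit with planted changes larger than any member's co-culture ratio. That test does not show how the ratio fit performs at ratios of the size reported here. Figures used Python 3.11.15 and matplotlib 3.10.9.

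Members and lists were chosen with earlier results of these data known. All members and probes are named. A gene is shown by its brightest tested probe, and of each pathway list up to 3 genes per line with the largest ratio of 1 sign, well above background throughout that line, are named, apart from 1 that is not reported here. Symbols were matched to RefSeq (UU_Cfam_GSD_1.0), used for names only. Alternatives are listed in the closing section.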

Additional observations from a re-analysis of the deposited data

Results flagged for a closer look

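The co-culture ratio of F3 had opposite signs in the 2 lines. On the log2 scale it was 0.30 and 0.61 on the P114 arrays and -0.22 and -0.29 on the CMT-U27 arrays, with means of 0.46 and -0.26. The difference of the means, P114 minus CMT-U27, was 0.71. F3 was singled out because both arrays of a line moved one way and both arrays of the other line the opposite way, a pattern that 8.39% of all tested probes showed. The limma fit of the difference over all probes did not call F3. Nothing is read from that outcome, since the genes were chosen with co-culture ratios of some of them known.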

How the results depend on the processing

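The P114 ratios of PLAU (0.56 to 0.72), PLAUR (0.40 to 0.61), PLAT (0.25 to 0.40) and F3 (0.28 to 0.61) kept their sign under all 15 alternatives, as did that of PLAT in CMT-U27 (0.31 to 0.55). Of the 15, 6 for PLAU and PLAT and 7 for PLAUR and F3 left the ratio as it was, since they act on the test, the filter, the other line or a second probe, and the series value table repeats the scanner software's log ratio. The CMT-U27 ratio of F3 ranged from -0.29 to 0.010, above 0 with median centring alone. Median centring also gave the 0.55 of PLAT in CMT-U27, which was 0.40 above the median of all tested probes (0.15) under that setting. Counts of probes called moved more. Median centring in place of loess called 62 probes in P114, 37 in CMT-U27 and 75 for the difference between them, against 0, 14 and 9. For the lines it called 3082 higher and 1821 lower, against 1985 and 2298. The scanner software's log ratio, the series value table and, chosen after seeing the data, the background model fitted on all spots called 0 in CMT-U27 and 0 for the difference. The difference had 1 call without background correction and 5 with marked spots kept, and CMT-U27 had 9 when all channels had to be well above background. Without the dye term 9842 probes were called between the lines. With each array left out, calls ranged from 0 to 662 in P114, from 0 to 51 in CMT-U27, from 0 to 164 for the difference and from 481 to 2966 between the lines. Those fits had no dye term, assume that a lone array varies like the others and, for the lines, keep the intraspot correlation of all arrays (0.94). The count of 662 in P114 and that of 164 for the difference came without P114 replicate 2, and the counts of 524 and 481 between the lines without CMT-U27 replicate 1 and 2. The cause of these shifts was not tested. Between the lines PLAT was also lost without background correction (adjusted p = 0.052) and without a filter on dim probes (0.062), by limma. Each ratio pairs both cultures on an array, and the array numbers pair nothing between lines. With 2 arrays a line, TFPI, TFPI2 and SERPINB2 in P114 were limited by signal near background.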
